A study of Homo sapiens with 4 samples.

Results

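The genes described here are encoded in the nucleus and serve mitochondrial respiration, the mitochondrial ribosome and traffic across the mitochondrial membranes. They were chosen by symbol: every gene in the table of differential N4-acetylcytidine (ac4C) peaks whose symbol starts with NDUF, UQCR, COX and a digit, ATP5, SDHA to SDHD, TIMM, TOMM, MRPL, MRPS or SLC25, together with ATAD3A and TRMU. The rule found 94 genes of the 2483 in that table, with 100 peaks of 2807. ATAD3A and TRMU were added to the rule by name with earlier results of these data known, and a gene without a differential peak could not enter it at all, so the members' changes are described and not tested.

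The peaks come from acRIP-seq of FaDu, an established human line of hypopharyngeal squamous carcinoma, in which RNA fragments bound by an antibody to ac4C (IP) are compared with the fragments before the pull-down (input). One line carried a control shRNA (shNC) and the other an shRNA against NAT10 (shNAT10), the enzyme that deposits ac4C on RNA, both from a lentiviral vector and held under puromycin selection. Each condition had 1 IP and 1 input library, 4 libraries in all and no replicates, so no value has an error between cultures and no difference between the conditions could be tested. The lists hold 6403 peaks for shNC and 6417 for shNAT10, with a median fold enrichment (IP over input, as the authors' peak caller gave it) of 12.4 in each. Depth is unknown, since the tables used here hold peaks and not reads. The tables give no expression level, so the loss of NAT10 mRNA could not be checked in them: the 3′-UTR peak of NAT10 itself was in both lists, at 6.91 in shNC and 12 in shNAT10, but this is an enrichment over input. With a single library of each kind, a difference in a peak cannot be told apart from a difference between libraries.

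The respiratory chain passes electrons from NADH and succinate through complexes I to IV to oxygen, and complex V (ATP synthase) uses the proton gradient so built to make ATP. Only a few core subunits are encoded by mitochondrial DNA and made on the mitochondrial ribosome, whose proteins, with the remaining subunits, are translated in the cytosol and brought in through the TOM and TIM translocases. Carriers of the SLC25 family move metabolites across the inner membrane. NAT10 acetylates cytidine in rRNA, tRNA and mRNA, and in mRNA the mark has been linked to transcript stability and translation.

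The RNA beneath a peak could be read for 3 of these genes, whose peaks cover the beginning of the RefSeq transcript. The 30 bases shown for each run 5′ to 3′ from base 21 to base 50 of the transcript (RefSeq, GRCh38.p14), and they are given because cytidine, here in capitals, is the base that ac4C modifies.
ATP5E (chr20:59032286-59032315, minus strand): CggCtgagCCgaCattgCCggCgtCttggC
COX8A (chr11:63974640-63974669, plus strand): ggCtaCggCtgaCCgttttttgtggtgtaC
MRPL20 (chr1:1407244-1407273, minus strand): ggCagCggCgCtgCgCgtgCgttgttgagt
The stretch held 10 cytidines in ATP5E, 6 in COX8A and 7 in MRPL20. The C-rich motif that the authors' table lists, CNNCNNCNNCNN, had 0 matches on the transcript strand in the first 50 bases of each. Over RefSeq, 25.7% of 35116 transcript starts had 1 or more there. These bases are only a part of each peak, and the peaks as a whole do have listed C-rich sites. The authors' table gives 6 for COX8A, 2 for MRPL20 and 1 for ATP5E, of which 6, 1 and 0 lay in exonic blocks. ATP5E, the epsilon subunit of ATP synthase, had a peak of low fold enrichment there, at 2.33 in shNC and 3.61 in shNAT10. COX8A, a small subunit of cytochrome c oxidase, had 15.5 in shNC and 5.73 in shNAT10, in a peak that begins 13 bases before the annotated start and runs across an exon junction to the 3′-UTR. MRPL20, a protein of the large mitochondrial ribosomal subunit, had a peak listed at 16.6 in shNC with no overlapping peak in shNAT10.

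Member peaks were spread over both lists. Of the 100, 26 overlapped a peak of shNC only (32.2% of all table peaks), 23 a peak of shNAT10 only (27.3%) and 51 a peak of both lists (40.4%), where an overlap is at least 1 bp of exonic sequence on the same strand. Among the 51 in both lists, the fold enrichment was at least 2-fold lower in shNAT10 in 20 (39.2%, against 33.8% of the 1135 such table peaks), at least 2-fold higher in 14 (27.5%, against 28.8%) and between these in 17. The median log2 ratio of shNAT10 over shNC was 0.13, against -0.29 over the table, with 24 below equality, 26 above it and 1 at equality: the oxoglutarate carrier SLC25A11, at 9.30 in each list. The median and the counts past 2-fold thus pointed in different directions, and the log2 ratios ran from -4.92 to 3.40. The table holds differential peaks only, and the difference of these shares from the table's was not tested. At 8 member peaks a table peak of another gene overlapped (5.24% of the table), so reads there cannot be given to a single gene: SLC25A10, NDUFA7, COX8A, TOMM6, MRPL38, MRPL53, MRPS17 and MRPS24. That count holds only genes with a table peak. On either strand and with introns included, another RefSeq gene lay across 17 member peaks (25.5% of the table). Peaks of MRPL28, ATP5H, ATP5L and ATP5E were among these. The share of the table may be too high, because only 2624 of its 2807 peaks were placed on the RefSeq gene of their symbol. For the rest, the peak's own gene under another name could be counted as another gene.

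By level, the median member peak stood at 15.5 in shNC, close to the 15.7 of all table peaks there, and at 9.53 in shNAT10, where the table had 15.6. Peaks listed in shNAT10 only had a median of 8.11 among the members and 16.9 over the table, whereas those listed in shNC only had 13.4 and 14.8. Peaks in both lists had an shNAT10 median of 11.8 among the members and 14.5 over the table, so the gap was wider in peaks without an shNC counterpart. These medians are descriptions of single library pairs.

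Complex I, which oxidises NADH, had the most peaks of the respiratory groups: 23 peaks in 21 genes, with 7 in shNC only, 6 in shNAT10 only and 10 in both. Their enrichment was modest, with a median of 8.78 in shNC and 8.72 in shNAT10. NDUFV1, the flavoprotein subunit that takes electrons from NADH, had the lowest ratio of the group, at 30.0 in shNC and 9.19 in shNAT10. The highest belonged to NDUFAF8, an assembly factor, whose peak near the gene start was at 5.90 in shNC and 43.3 in shNAT10, a ratio of 7.34. A second NDUFAF8 peak, 686 bases further along the gene, was listed in shNAT10 only, at 34.6. The other assembly factor with several peaks, NDUFAF2, showed the opposite listing: both of its peaks, at 4.83 and 8.78, were in shNC only. NDUFB9, an accessory subunit of the membrane arm, had the most enriched peak of those in shNC only, at 17.3. In 5 of the 10 peaks in both lists the ratio stayed within 2-fold, and 6 of the 10 were above equality. NDUFA4 is counted here by its symbol, although RefSeq now names it COXFA4, for cytochrome c oxidase; its peak was at 5.79 in shNC and 8.95 in shNAT10.

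Complexes II and III had few peaks. Succinate dehydrogenase (complex II) had 1 peak in each of 2 subunits: the flavoprotein SDHA was listed in shNAT10 only, at 5.72, and the iron-sulphur subunit SDHB in shNC only, at 3.94. Both had a low fold enrichment within their lists, at percentiles 16.4 and 7.72, although the p-values in the authors' lists were small. In complex III, which passes electrons from ubiquinol to cytochrome c, the small subunit UQCR10 had 39.8 in shNC and 6.42 in shNAT10. UQCRFS1, the Rieske iron-sulphur protein, had the opposite order, with 6.52 in shNC and 24.6 in shNAT10. The remaining subunit, UQCRQ, had a peak in shNAT10 only, at 6.76.

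Complex IV, cytochrome c oxidase, held the strongest shNAT10 peak of all members. COX4I1, the common form of subunit 4, had a peak at chr16:85806715-85807014 near the end of the gene with 57.9 in shNC and 176 in shNAT10, above 99.7% of the shNAT10 list. Its second table peak, 718 bases upstream, was at 39.9 in shNC and 51.9 in shNAT10. COX8A had the lowest ratio of the group, described above with its sequence. Of the remaining named peaks, COX5A, an accessory subunit, was listed in shNC only at 6.98, and the assembly factor COX14 in shNAT10 only at 8.11. Over the 9 peaks of the complex, 6 were in both lists, of which 4 stayed within 2-fold.

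Complex V, the ATP synthase, had 9 peaks in 9 genes, of which 8 were in both lists. ATP5H, subunit d of the peripheral stalk, was at 64.2 in shNC and 8.17 in shNAT10, which is 7.86-fold lower. ATP5L, subunit g of the membrane part, was at 7.32 in shNC and 43.3 in shNAT10, which is 5.92-fold higher. These subunits of the same enzyme thus differed in direction, and the 8 ratios split evenly, 4 below equality and 4 above. The single peak without an shNC counterpart was in ATP5A1, the alpha subunit, at 8.15. Outside the differential table, the same gene had a peak at 43.1 in shNC and 45.5 in shNAT10. The shNC peak was also overlapped by a weaker shNAT10 peak, at 7.61. Further ATP5A1 peaks outside the table were listed in shNAT10 only, at 32.1, and in shNC only, at 7.6. Among all 46 peaks of the respiratory complexes, 10 were in shNC only, 10 in shNAT10 only and 26 in both, with 8 lower and 6 higher by 2-fold and a median log2 ratio of 0.40.

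Among the member peaks of the differential table, proteins of the mitochondrial ribosome gave both extremes of the ratio. MRPL18, a large-subunit protein, had a peak at chr6:159798197-159798376 with 88.4 in shNC and 2.93 in shNAT10, 30.2-fold lower and the lowest ratio of any member. The p-value of that peak, from the authors' list, was 2.5e-28 in shNC and 1.6e-05 in shNAT10. MRPL28, also of the large subunit, had the highest: its peak in 3 exonic blocks at chr16:367473-368816 was at 12.3 in shNC and 130 in shNAT10, 10.6-fold higher. In the large subunit as a whole, 24 peaks in 23 genes fell into 6 in shNC only, 7 in shNAT10 only and 11 in both. Of those 11, 5 were 2-fold lower and 4 were 2-fold higher, so that only 2 stayed between. The status is that of the table peak, and a listed peak can reach beyond it. MRPL37, named here after its values were seen, counts as shNAT10 only at 6.37. Its listed shNAT10 peak nevertheless overlaps an shNC peak of 18.6 that the differential table does not hold.

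Single-list peaks of the large subunit were mostly weaker. The most enriched was MRPL16 in shNC, at 24.2, and MRPL48 in shNAT10, at 19.0. MRPL20 had a second peak, at the 3′ end of the gene, with 36.6 in shNC and 8.38 in shNAT10; with the start peak above, both of its table peaks were stronger in, or listed only in, shNC, while a further peak between them, outside the table, was listed in shNAT10 only at 16.1. All but 1 of the 7 large-subunit peaks in shNAT10 only were below 10, and their median was 6.23.

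The small subunit had 12 peaks in 11 genes, 4 in shNC only, 1 in shNAT10 only and 7 in both. Here 5 of the 7 were 2-fold lower in shNAT10 and 1 was 2-fold higher, with a median log2 ratio of -1.53. MRPS5 was the lowest, at 113 in shNC and 20.4 in shNAT10. The exception was MRPS21, at 4.17 in shNC and 16.9 in shNAT10. MRPS28 had the only peak in shNAT10 only, at 45.6, but its gene also had a peak elsewhere in the shNC list at 3.59. MRPS35 had 2 table peaks 59 bases apart, and both overlapped the same shNC peak of 24.9, so they count a single listed peak more than once. Large and small subunits together had 18 peaks in both lists, 10 of them 2-fold lower and 5 higher (55.6% and 27.8%, against 33.8% and 28.8% of the table), with a median log2 ratio of -1.37. With so few peaks and no replicate library, the difference from the respiratory complexes was not tested.

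**Figure D1:**
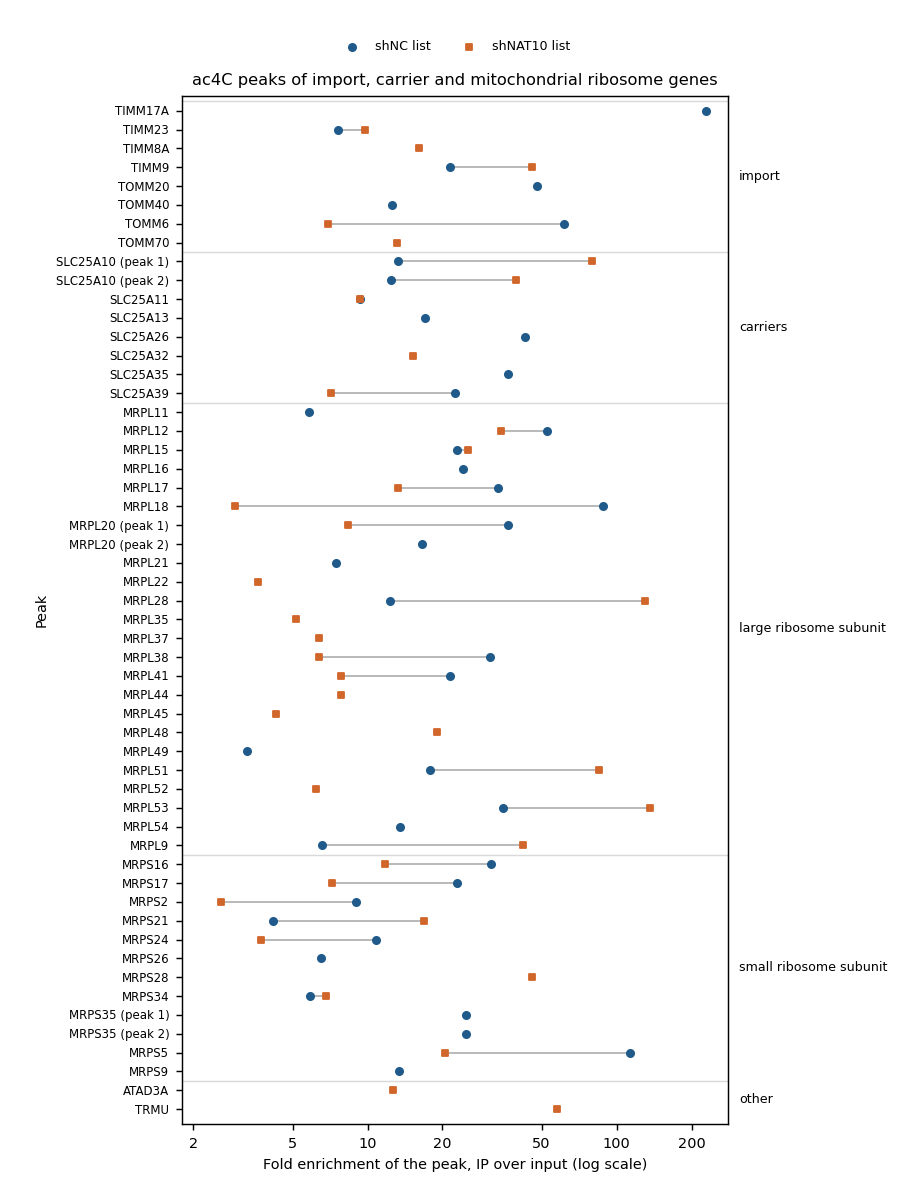
Fold enrichment (IP over input, log axis) of each of the 54 peaks of import, carrier and mitochondrial ribosome genes and of ATAD3A and TRMU (other), drawn as for the respiratory chain: blue circles for shNC, orange squares for shNAT10, grey lines for peaks in both lists, no error bars for lack of replicates. The longest line is MRPL18, from 88.4 to 2.93, and MRPL28 runs the other way, from 12.3 to 130.

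Import genes included the strongest shNC peak of the members. TIMM17A, a subunit of the TIM23 translocase of the inner membrane, had a peak of 229 in shNC, above 99.9% of that list, with no overlapping shNAT10 peak. A neighbouring TIMM17A peak, which the differential table does not hold, was at 23.8 in shNC and 25.4 in shNAT10. TOMM6, a small subunit of the outer-membrane translocase, was at 61.7 in shNC and 6.91 in shNAT10. The overlapping gene is AL365205.1. The small chaperones of the intermembrane space differed from it: TIMM9 was at 21.4 in shNC and 45.9 in shNAT10, and TIMM8A was listed in shNAT10 only, at 16.1. A further 65 shNAT10 peaks shared exactly the fold enrichment and p-value of TIMM8A, so those values do not set it apart from them. Over the 8 import peaks, 3 were in shNC only, 2 in shNAT10 only and 3 in both.

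Carriers likewise had peaks of each direction. SLC25A10, which exchanges dicarboxylates for phosphate, had 2 peaks 208 bases apart in its 3′-UTR, and both were higher in shNAT10: 13.3 in shNC and 79.4 in shNAT10 for the first, 12.4 and 39.4 for the second. The first is the peak shared with AC139530.2. SLC25A39, the mitochondrial glutathione transporter, had the lowest ratio of the carriers, with 22.4 in shNC and 7.15 in shNAT10. SLC25A26, which brings in S-adenosylmethionine, was listed in shNC only at 42.8, and SLC25A32, which carries folate, in shNAT10 only at 15.2.

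ATAD3A and TRMU, the pair added by name, were each listed in shNAT10 only. ATAD3A, an ATPase of the inner membrane, had a 3′-UTR peak at 12.6 and no listed peak in shNC anywhere in the gene. TRMU, which thiolates mitochondrial tRNA, had 57.6 at chr22:46357040-46357280 and a further peak outside the differential table that was nearly equal in the lists, at 10.7 in shNC and 11.4 in shNAT10.

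Fewer member peaks than table peaks were placed in the 3′-UTR, a share that the rule did not use. Of the 100, 40 (40.0%) were classed as 3′-UTR, against 56.1% of the table, while 31 (31.0%) were classed as coding sequence, against 19.4%, and 29 as exon without a finer class, against 23.7%. Further from the table were the respiratory complexes, with 23.9% in the 3′-UTR and 41.3% in coding sequence; complex I alone had 56.5% in coding sequence. In the mitochondrial ribosome 47.2% lay in the 3′-UTR and 27.8% in coding sequence. A peak made of several exonic blocks, which crosses an exon junction, was seen in 44 member peaks (44%, against 26.9% of the table) and in 30 of the 46 of the respiratory complexes (65.2%). ATP5C1, the gamma subunit of ATP synthase, had a peak in 8 blocks, named here after its values were seen. Peaks in several blocks were in both lists in 61.4% of members and 54.8% of the table, against 42.9% and 35.1% of peaks in 1 block.

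Measured to the ends of the RefSeq gene, 53 member peaks lay within 300 bp of the 3′ end (46.7% of the 2624 table peaks that could be placed) and 8 lay within 300 bp of the 5′ end (1.98% of the table). Those 8 were in NDUFAF8, NDUFB7, UQCR10, COX8A, ATP5E, TOMM6, MRPL20 and MRPL53, a list read off after the values were known. A peak can be near both ends of a short gene, as in COX8A. Gene length was not held equal between the members and the table.

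Listed C-rich sites were as common as elsewhere. At least 1 site was given for 61 member peaks (61.0%, against 60.9%) and at least 2 for 38 (38.0%, against 38.2%). The table listed 147 sites for the members, of which 132 lay in exonic blocks, or 0.425 per 100 exonic bases, against 0.490 over the table. The most sites, 8, were in MRPL28 and SLC25A11, which differed in their ratio: MRPL28 had the highest of all member peaks in the table and SLC25A11 was at equality. MRPL18, with the lowest ratio, had 1 site. By role the exonic density ran from 0 in complex II and 0.0933 in complex III, with 2 and 3 peaks, to 0.824 in the carriers and 0.887 in ATAD3A and TRMU.

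**Figure D2:**
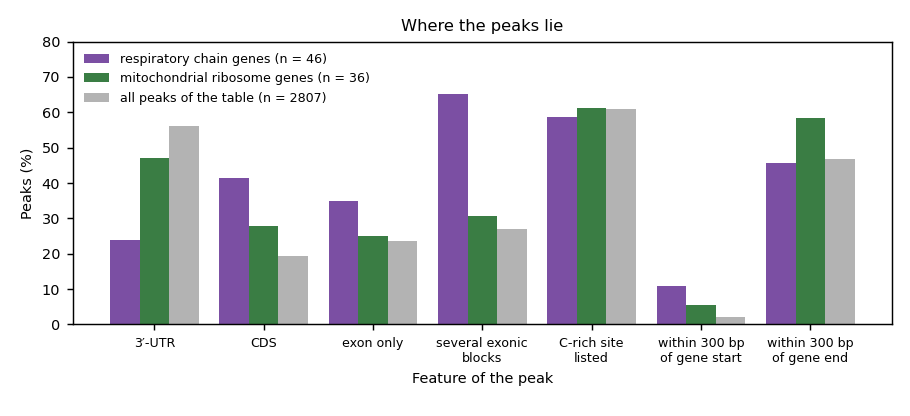
Share of peaks (vertical axis, %) with each feature for the 46 peaks of respiratory chain genes (purple), the 36 of mitochondrial ribosome genes (green) and all 2807 table peaks (grey); each bar is a single share with no error bar, and for the distances the grey bar is over the 2624 peaks that could be placed on a RefSeq gene. Respiratory chain peaks were in the 3′-UTR in 23.9% and in several exonic blocks in 65.2%, against 56.1% and 26.9% of the table, while shares with a C-rich site were close to each other.

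A differential peak was often not the only peak of its gene. Counting every listed peak, 66 of the 94 genes (70.2%) were in both lists, 16 in shNC only (17.0%) and 12 in shNAT10 only (12.8%), against 58.9%, 21.5% and 19.6% of the 2483 genes of the table. Of the 26 peaks in shNC only, 8 were in genes with another peak in the shNAT10 list (30.8%, against 38.0% over the table), and of the 23 in shNAT10 only, 11 were in genes with another peak in the shNC list (47.8%, against 34.9%). The member genes had 114 peaks in shNC and 115 in shNAT10, and an overlapping peak in the other list was missing for 33.3% and 31.3% of them (48.3% and 48.5% of all listed peaks; 43.9% and 42.9% for all genes of the table).

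Peaks of the member genes that the differential table does not hold numbered 36 in each list. Of these, 36.1% in shNC and 33.3% in shNAT10 had no partner (51.1% and 52.6% of all listed peaks outside the table). Where they had a partner, the median absolute log2 ratio was 0.43 for the shNC peaks and 0.48 for the shNAT10 peaks, against 0.75 in each list for all peaks outside the table. The members' peaks in the table had 1.45 and all table peaks 1.36. The authors selected the table for differences by their own measure, which was not used here. Peaks inside and outside it are therefore not a like comparison. NDUFA13, an accessory subunit of complex I, had 3 such peaks in each list: 2 were almost level, at 42.1 and 43.5 and at 36.3 and 35.7 in shNC and shNAT10, while another, 5′ of them, was at 90.5 and 7.44. Its single table peak was weaker and within 2-fold, at 3.6 in shNC and 2.16 in shNAT10. ATP5E had a further peak, 3′ of its table peak, at 4.97 in shNC and 119 in shNAT10 that was nevertheless outside the table. Its log2 ratio of 4.58 exceeded that of every member peak in the table, of which the highest was 3.40. NDUFB9 had its strongest peak outside the table as well, at 180 in shNC and 91.0 in shNAT10. Another NDUFB9 peak outside the table went the other way, at 6.43 in shNC and 50.7 in shNAT10. These 3 genes were named after their values were seen.

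Values near the calling limit were coarse. Fold enrichments of weak peaks took few distinct values, about 0.69 apart in shNC and 0.85 apart in shNAT10; for example, 110 shNAT10 peaks had exactly 6.76 with a p-value of 0.032. Over the lists, 46.6% of shNC peaks and 48.8% of shNAT10 peaks shared their pair of fold enrichment and p-value with another peak. Among the member peaks this was so for 11 of 77 in shNC and 10 of 74 in shNAT10 (14.3% and 13.5%, against 26.4% and 26.8% of table peaks). SLC25A26, TOMM20, MRPS28 and TIMM8A, all listed in a single condition, were among them, as was the shNC peak of MRPL18. Strong peaks were among them too, such as COX4I1 at 39.9 in shNC and MRPL28 at 130 in shNAT10. A shared pair is therefore not by itself a sign of a weak peak.

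Other nuclear genes of mitochondrial upkeep, in 9 lists with 188 symbols, gave 50 genes and 54 peaks in the table. Of these, 20 were in shNC only (37.0%), 12 in shNAT10 only (22.2%) and 22 in both (40.7%). The whole table had 32.2%, 27.3% and 40.4%. Among the 22, 10 were lower and 6 higher by 2-fold, against 33.8% and 28.8% of such table peaks. Their median log2 ratio was -0.88, against -0.29 over the table, and the difference was not tested. In the citric acid cycle, citrate synthase (CS) was at 20.4 in shNC and 1.55 in shNAT10, and SUCLG1, of succinyl-CoA ligase, was in shNAT10 only at 34.2. ETFB, which hands electrons from fatty acid oxidation to the chain, was at 22.7 in shNC and 1.95 in shNAT10. ELAC2, which trims the 3′ ends of tRNA, was at 2.96 in shNC and 26.3 in shNAT10, and MICOS13 (C19orf70 in the table), of the cristae-shaping complex, at 10.1 and 74.9. These 5 genes were named after their values were seen. Of the genes of mitochondrial DNA, 13 had peaks in the table, 11 for subunits of the same complexes and MT-RNR1 and MT-RNR2 for the rRNAs of the mitochondrial ribosome. In both lists were 13 of their 14 peaks, with ratios from 0.507 to 1.59 and none past 2-fold in either direction.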

How the data were processed

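acRIP-seq libraries of FaDu cells were sequenced as an IP and an input for shNC and for shNAT10, and the tables were assigned to a condition by a prefix shared by tables and library titles. The submitters' processing notes name cutadapt 2.5, HISAT2 2.1.0, HOMER 4.10.4 and featureCounts 1.6.3; the peak caller, its limits and the scaling between libraries are not given in the sources used here. The authors called peaks in each condition and deposited, for each peak, its fold enrichment as a linear ratio of IP over input, its p-value and its log10 FDR. The authors' deposited table of differential peaks adds a region class, a gene symbol and C-rich sites. It also holds the authors' own log2 fold change, p-value and FDR between the conditions, which were not used. Positions are GRCh38, counted from 1.

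A table peak was given the status of the listed peaks it overlapped on the same strand by at least 1 bp of exonic sequence, and the fold enrichment of the longest overlap. The ratio is shNAT10 over shNC, and 2-fold was counted. All 100 member peaks lay on the RefSeq GRCh38.p14 gene of their symbol, in 10 genes through an older symbol. Of 33 listed C-rich sites that lie wholly in RefSeq start windows, 31 showed the motif there on the transcript strand. Symbols were known only for genes of the differential table. The overlap was tested on simulated data, where 3000 of 3000 statuses were recovered. Named peaks were, per role, the most enriched of each single-list status and the lowest and highest ratio, with every member of a role of at most 5 genes and every gene with several table peaks. Genes named outside this rule are marked. The members and lists were chosen with earlier results of these data known. No test was run for lack of replicates. Tables were handled with pandas 2.3.3 and numpy 2.4.6, intervals came from scipy 1.17.1 and plots from matplotlib 3.10.9, all under Python 3.11.15.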

Additional observations from a re-analysis of the deposited data

How the results depend on the processing

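Of 55 alternative values, 47 moved by less than the 95% Wilson interval of a share, the like interval of a median or 1.5 times a count, 8 moved by more and 0 reversed. Some of the 47 say little. The FDR limit of 0.05 left out 0 member peaks, so it could not change their status, ratio or level. Taking the smallest p-value where several peaks overlap also repeated the main ratio values. Taking any listed peak of the gene in place of an overlapping one gave 18.0% of member peaks in shNC only, 12% in shNAT10 only and 70.0% in both. Counted so by gene, the whole table also had most of its genes in both lists: 21.5%, 19.6% and 58.9%, against 17.0%, 12.8% and 70.2% of member genes. Without peaks classed only as exon, 56.3% of members and 73.5% of the table were in the 3′-UTR. Asking for at least 2 C-rich sites left 38.0% of member peaks and 38.2% of the table. Requiring the overlap to span 50% of each peak lowered the shared part of all listed peaks of member genes to 53.5% in shNC and 53.9% in shNAT10. It lowered the peaks of other mitochondrial genes in both lists to 25%. Shares over all peaks were not computed at this setting, so these values have no background beside them. These differences follow from how each alternative counts. No paired analysis was possible because a condition holds only 1 library of each kind, which gives no second pair. Depth is unknown, so weak and single-list peaks cannot be given a counting error.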
